A study of Oryza sativa and Arabidopsis thaliana with 16 samples.

Results

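This account covers 3 rice genes in roots: TPP1 (LOC4330221), GER3 (LOC4344838) and PIN5 (LOC4327533). They were chosen by measured values of this series, namely a large nitrogen change in roots and little in shoots, with no numerical threshold. Each gene was matched by its gene number and had 1 probe set on the rice array, so the 3 genes stand among 17905 with a probe set and the 3 probe sets among 57194 tested. In the gene table used for names, PIN5 is also listed as PIN9. It is a separate gene from those listed as PIN5A, PIN5B and PIN5C.

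The series measured the early response to nitrogen in rice (Oryza sativa) and Arabidopsis with Affymetrix arrays, and the 8 rice arrays are used here. Wild-type rice seedlings grew in hydroponic medium at 27 °C, which held 3 mM sucrose and, as its nitrogen source, 0.5 mM ammonium succinate. At 13 days of age the nitrogen groups were given 20 mM KNO3 together with 20 mM NH4NO3. Controls were given 20 mM KCl, and both were harvested after 2 h. Roots and shoots of each set give 4 groups of 2 arrays: root control, root nitrogen, shoot control and shoot nitrogen. All plants therefore had some ammonium, and treated plants had more added salt and less chloride than controls. Nitrogen and these salt differences cannot be told apart. The labels call the 2 arrays of a group biological replicates, and they name root or shoot for each array although the protocols speak of whole seedlings.

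Trehalose-6-phosphate is a sugar signal of plants. It is made by trehalose-phosphate synthases, and phosphatases such as TPP1 remove its phosphate to give trehalose. In rice, TPP1 is also known as a gene induced by cold. Germin-like proteins such as GER3 are cupin-fold proteins of the cell wall and apoplast, and in rice a cluster of them has been linked to resistance against fungal disease. PIN proteins are membrane carriers that export auxin from cells or between cell compartments, and so shape root growth. The gene also listed as PIN9 belongs to a PIN branch known from monocots.

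The 2 arrays of each group correlated across probe sets at 0.993 to 0.994. Tissue labels were checked with 2 marker lists. The 8 photosynthesis genes measured were all lower in roots, with a mean log2 signal of 8.34 to 9.58 on root arrays and 12.3 to 12.4 on shoot arrays. Of 5 root markers, 4 were higher in roots (limma), among them the silicon transporter genes LSI1 and LSI2, and SCR1 was lower. Within roots, the photosynthesis mean was lowest on nitrogen replicate 1 (8.34) and highest on nitrogen replicate 2 (9.58), a difference between arrays of 1 group whose part in the results below was not tested.

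TPP1 had the larger of the rises in roots. Its log2 RMA signal was 7.61 and 7.71 on the root control arrays and 9.62 and 10.24 on the root nitrogen arrays. Both nitrogen arrays lay above both controls, and the nitrogen arrays stood farther apart from each other (0.61) than the controls did (0.10). The difference of means was 2.27 ± 0.22 (log2, SE of the limma fit, n = 2 arrays per group), a 4.81-fold higher signal. It was the rise that ranked 11 by size among all probe sets tested. The size of the rise depended on the root nitrogen array used: 1.96 without replicate 2, also the root array with the highest photosynthesis mean, and 2.57 without replicate 1. In shoots TPP1 was at 6.86 and 6.39 in controls and at 6.27 and 6.54 after nitrogen. The shoot groups overlapped, with a difference of -0.22 ± 0.22.

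GER3 rose in roots with little spread between arrays. Its signal was 8.56 and 8.73 in root controls and 10.22 and 10.17 after nitrogen. The nitrogen arrays differed from each other by 0.057, the smallest gap of the 12 pairs of arrays of these genes. The difference was 1.55 ± 0.15 (log2 ± SE), or 2.92-fold, and ranked 38 among the rises. In shoots the values were 7.21 and 7.49 in controls and 7.22 and 7.58 after nitrogen. These overlapped, and the difference of 0.05 ± 0.15 was smaller than the gap between the arrays of either shoot group.

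PIN5 fell in roots. Its signal was 8.55 and 8.94 in root controls and 6.82 and 6.62 after nitrogen, with no overlap. The difference was -2.03 ± 0.19 (log2 ± SE), a 4.07-fold lower signal, and only 1 probe set of the rice array fell more. In shoots it was at 5.71 and 5.19 in controls and at 5.22 and 5.35 after nitrogen. The shoot groups overlapped, with a difference of -0.16 ± 0.19. All 4 shoot values lay under a log2 signal of 6, the level used below as a filter on dim probe sets. RMA values carry no detection call, so whether PIN5 was above background in shoots cannot be told.

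**Figure D1:**
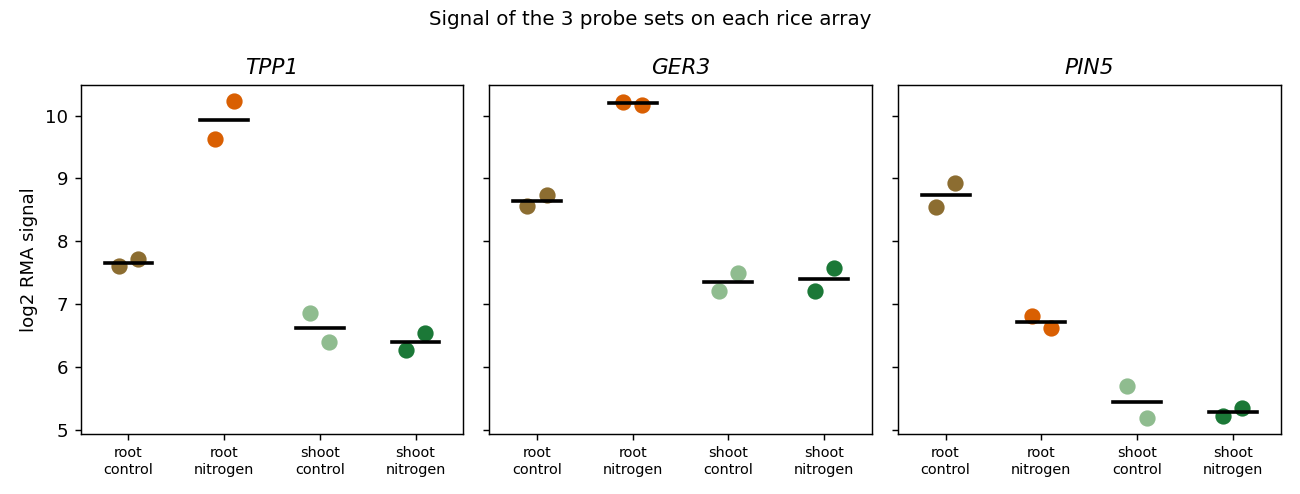
Log2 RMA signal (vertical axis) of TPP1, GER3 and PIN5 on each of the 8 rice arrays, by group. Points are arrays and bars are means of 2 arrays; TPP1 and GER3 are highest in root nitrogen, PIN5 in root control, and the shoot groups overlap for each gene.

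These root and shoot changes are the values by which the genes were chosen and are given without a test. Limma calls of the 3 genes on this contrast are left out, since the genes were chosen on it. Over all probe sets limma called 0.245% in roots (adjusted p under 0.05), 0.182% higher and 0.0629% lower. In shoots 0.0437% were called. Both root nitrogen arrays lay above both root controls for 18.2% of probe sets and below them for 23.1%, so the lack of overlap seen for each gene in roots is common by itself. Over the 8 fits that left out 1 array the root change lay between 1.96 and 2.57 for TPP1. It lay between 1.46 and 1.63 for GER3 and between -2.22 and -1.83 for PIN5. The call counts over all probe sets moved as well, and without root nitrogen replicate 2 they were 81 higher and 112 lower, against 104 higher and 36 lower with all arrays.

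The root response minus the shoot response was 2.49 ± 0.31 for TPP1, 1.50 ± 0.21 for GER3 and -1.86 ± 0.27 for PIN5 (log2 ± SE). By size these ranked 7, 53 and 17 of 57194. The choice of the genes fixed this contrast too, so these are descriptions. Over the whole array limma called 0% of probe sets for it, and 3444 of the 57194 had an unadjusted p under 0.05. The plot of changes over all probe sets shows the 3 genes in the tails for roots and near 0 for shoots.

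**Figure D2:**
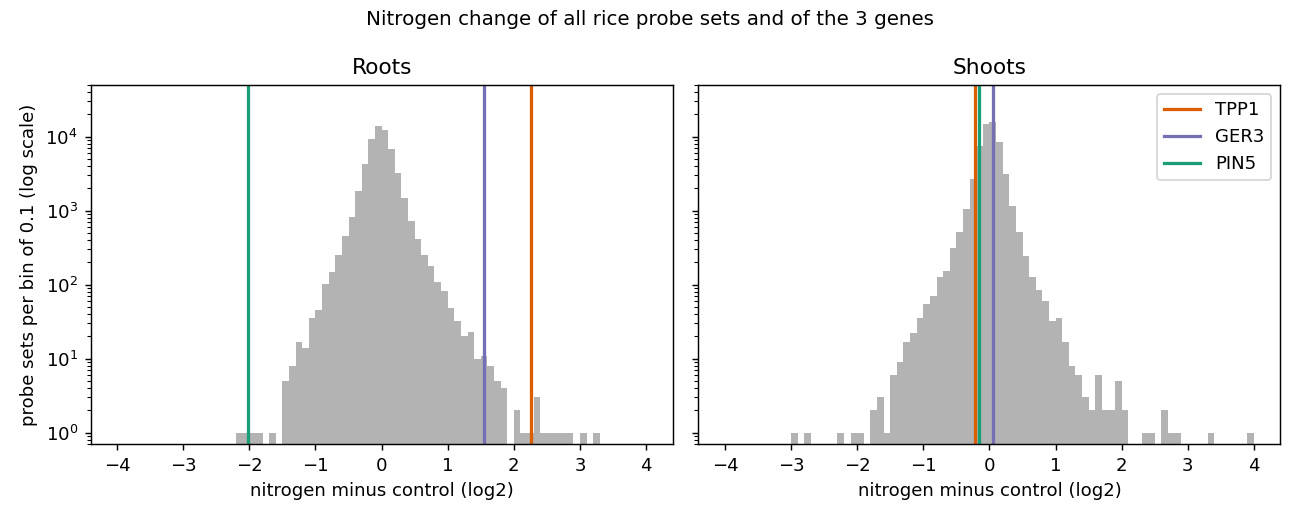
Number of rice probe sets (vertical axis, log scale) by nitrogen minus control difference (log2, horizontal axis, bins of 0.1) in roots and shoots. Vertical lines mark TPP1 (2.27 in roots, -0.22 in shoots), GER3 (1.55 and 0.05) and PIN5 (-2.03 and -0.16).

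The choice of genes did not directly use their level in roots against shoots, averaged over control and nitrogen plants, and this was tested. The average holds the root nitrogen arrays, so the changes used in the choice enter its size. They raise it for TPP1 and GER3 and lower it for PIN5, so the test is not independent of the choice. In control plants alone, not tested, the gap was 1.04 for TPP1, 1.30 for GER3 and 3.29 for PIN5. TPP1 was higher in roots by 2.28 ± 0.16 (log2 ± SE, n = 4 arrays per tissue; limma adjusted p = 6.45e-06), with root means of 8.80 against 6.52 in shoots. GER3 was higher in roots by 2.05 ± 0.11 (limma adjusted p = 1.23e-06), with means of 9.42 and 7.38. PIN5 was higher in roots by 2.36 ± 0.14 (limma adjusted p = 2.10e-06), with means of 7.73 and 5.37. For each of the 3 genes all 4 root arrays lay above all 4 shoot arrays. The lowest root value was 7.61 against a highest shoot value of 6.86 for TPP1, 8.56 against 7.58 for GER3, and 6.62 against 5.71 for PIN5.

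The direction of the tissue difference was thus the same for the genes that rose and for the one that fell. A higher signal in roots was common on this array, with 40% of probe sets called between the tissues by limma, 24.4% higher and 15.6% lower in roots. All root arrays lay above all shoot arrays for 23.8%, so 3 of 3 is not particular to these genes. The two-sided exact permutation test over the 8 arrays gave p = 0.0286 for each gene, the smallest p that 4 against 4 arrays allow. In fits without 1 array the limma adjusted p ranged from 1.12e-05 to 7.21e-05 for TPP1, 5.59e-06 to 1.94e-05 for GER3 and 4.49e-06 to 3.06e-05 for PIN5. The limma variance of a probe set is shared with the root contrast used in the choice, so the choice may bear on it. The SE of the root change was 0.22 for TPP1 and 0.19 for PIN5, larger than for the other measured genes of their families. It was 0.15 for GER3, smaller than for the other germin-like genes. In whole tissues, fewer cells of a type and less RNA per cell cannot be told apart.

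Within each treatment all 3 genes had a higher mean in roots, with the widest gap for PIN5 in control plants and for TPP1 in nitrogen plants. In control plants the signal of PIN5 was 3.29 log2 units higher in roots than in shoots, that of GER3 1.30 (2.46-fold) and TPP1 1.04 (2.05-fold). In nitrogen plants the gap was 1.43 for PIN5, 2.80 for GER3 (6.95-fold) and 3.52 for TPP1 (11.5-fold). No fold is given for PIN5, since its shoot signal may be background. The shift of these gaps between treatments is the same quantity as the root minus shoot response above, so it is not a separate result. After nitrogen PIN5 in roots, at 6.72 ± 0.14 (mean ± SD, n = 2), still lay above its shoot level of 5.29 ± 0.098.

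None of the other measured genes of the trehalose family was called, which is near the low share of calls over all probe sets. The gene table names 9 trehalose-phosphate phosphatase genes and no synthase or trehalase by the symbols searched, and 8 of them had a probe set. Among the 7 other than TPP1, limma called 0 in roots and 0 in shoots, beside 0.245% and 0.0437% of all probe sets. Of these 7, 0 had an unadjusted p under 0.05 in either tissue. Over all probe sets 10.5% had such a p in roots and 6.21% in shoots. Their median root change was -0.01 (range -0.20 to 0.23), beside -0.02 over all probe sets. The sizes were largest for TPP4 (0.23 ± 0.19), TPP2 (0.23 ± 0.17) and TPP6 (-0.20 ± 0.13). TPP4 had the opposite sign (-0.035) without root nitrogen replicate 2. Between the tissues, 3 of the 7 were called higher in roots and 1 lower, beside 24.4% and 15.6% of all probe sets. TPP9 was higher by 1.27 ± 0.10, and TPP7, a gene known in rice for germination under low oxygen, was lower by 1.12 on the log2 scale.

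None of the other measured germin-like genes was called, again near the share over all probe sets. Of 10 genes found by symbol 9 were measured. Among the 8 other than GER3 limma called 0 in roots and 0 in shoots (0.245% and 0.0437% of all probe sets). At an unadjusted p under 0.05 there were 1 and 0 (10.5% and 6.21% of all probe sets). Their median root change was -0.02 (range -0.49 to 0.65). GER7 was at 0.65 ± 0.20 (limma adjusted p = 0.300). Its root nitrogen arrays, at 8.70 and 8.14, both lay above the controls, as they did for 18.2% of all probe sets. GER6 was at 0.56 ± 0.26, and LOC4344846, listed as RGLP1, RGLP2 and GLP2, at 0.51 ± 0.57. The last had a wide spread, with shoot controls at 8.22 and 10.21.

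GER2 and GER1 are the genes next to GER3 in the gene table, with 0 and 1 genes between, and were looked at for that reason after their values had been seen. GER2 was at 13.54 and 13.84 in root controls and at 13.50 and 13.77 after nitrogen, a difference of -0.05 ± 0.20. GER1 was at 12.43 and 12.70 in root controls and at 12.21 and 12.43 after nitrogen, a difference of -0.25 ± 0.19. Root control and nitrogen arrays overlapped for GER2 and nearly met for GER1. For GER3, chosen for its root change, they stood 1.44 apart at the closest. GER6 and LOC4344846 lie farther from GER3, with 4 and 8 genes between. Their root differences were 0.56 ± 0.26 and 0.51 ± 0.57, not called. For each both nitrogen arrays lay above both controls, as they did for 18.2% of all probe sets. Whether the responses of these neighbours differ from that of GER3 was not tested. GER2 and GER1 were higher in roots than in shoots, GER2 by 4.74 ± 0.14 and GER1 by 4.08 ± 0.13. In all, 4 of the 8 other germin-like genes were called higher in roots and 2 lower, beside 24.4% and 15.6% of all probe sets. The lower ones were GER8 (-4.81 ± 0.12) and GER5 (-4.47 ± 0.19).

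Auxin transport genes were few on the annotated array. Of 9 genes named 5 were measured, all of the PIN family. Among the 4 other than PIN5 limma called 0 in roots and 0 in shoots (0.245% and 0.0437% of all probe sets). In each tissue 1 had an unadjusted p under 0.05 (10.5% and 6.21% of all probe sets), and these were different genes. The root gene was LOC4326565. The shoot gene was LOC4324368, listed as PIN5A and PIN6, with a shoot change of 0.54 ± 0.14 (limma adjusted p = 0.513). The median root change of the 4 was -0.24 (range -0.52 to 0.11). LOC4326565, listed as PIN3A, was at 6.82 and 7.02 in root controls and at 6.40 on both root nitrogen arrays, a difference of -0.52 ± 0.16 (limma adjusted p = 0.281). LOC4346116, listed as PIN4, PIN5B and PIN5C, was at -0.25 ± 0.13. PIN2, which in Arabidopsis roots carries auxin away from the tip in the outer cell layers, was at -0.23 ± 0.15. In the tissue comparison PIN2 was higher in roots by 2.31 ± 0.10, while PIN3A was lower by 1.22 on the log2 scale.

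The list of auxin synthesis and response held 55 measured genes (IAA, ARF, GH3, SAUR, YUCCA and TAR genes). Of these limma called 0 in roots and 0 in shoots, beside 0.245% and 0.0437% of all probe sets. At an unadjusted p under 0.05 there were 3 higher and 8 lower in roots, and 1 higher and 10 lower in shoots. Over all probe sets 5.38% were higher and 5.14% lower in roots by that threshold, and 3.39% higher and 2.82% lower in shoots. The median change was -0.01 in roots and -0.07 in shoots, beside -0.02 and 0.01 over all probe sets. The largest root value was that of IAA2, an Aux/IAA repressor gene, at 0.74 ± 0.20 (limma adjusted p = 0.224). GH3.8, whose product conjugates auxin to amino acids, was at 0.53 ± 0.24, and IAA18 at 0.51 ± 0.20.

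**Figure D3:**
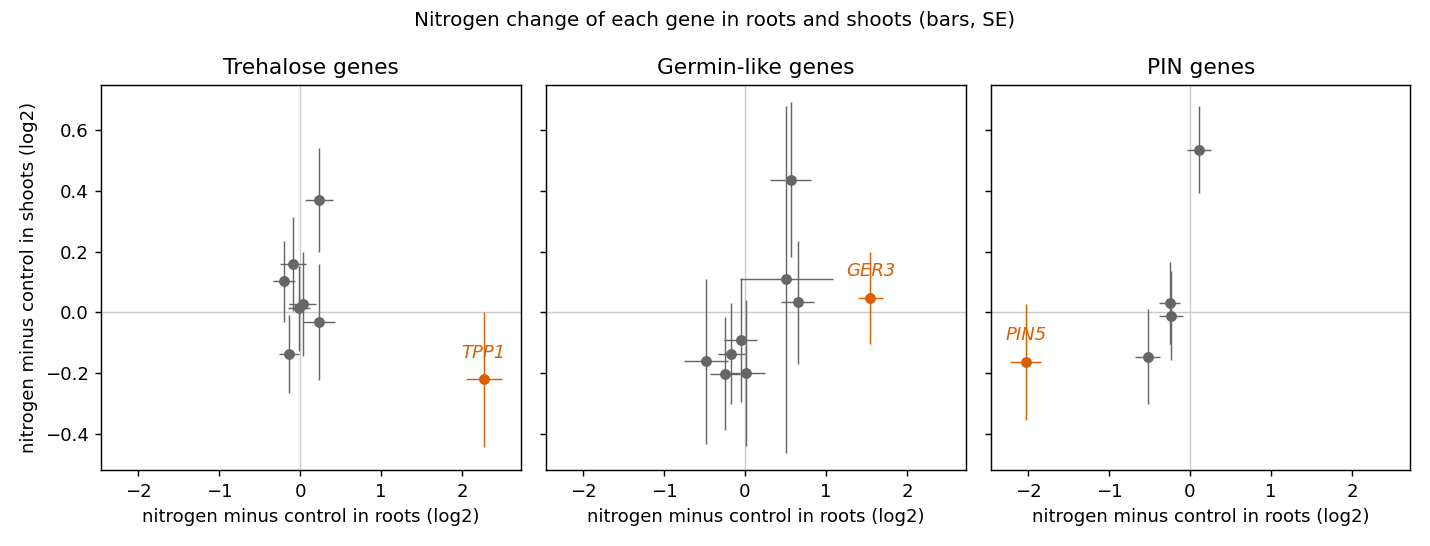
Nitrogen minus control difference (log2) in roots (horizontal axis) against shoots (vertical axis, finer scale) for 8 trehalose genes, 9 germin-like genes and 5 PIN genes. Points are genes and bars are SE. TPP1, GER3 and PIN5 (orange) lie outside the range of the other genes in roots, as they were chosen to. Limma called none of the other genes shown, beside 0.245% of all probe sets in roots and 0.0437% in shoots.

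The genes whose signal ran most like each of the 3 over the 8 arrays were taken among named genes with a mean log2 signal of at least 6 and a range of at least 1. These correlations are descriptions. The arrays fall into 4 groups, so they mostly reflect the group means. For TPP1 the most alike was ADF-10, an actin-depolymerising factor gene (Pearson r = 0.994 over 8 arrays). It was at 6.72 and 6.56 in root controls, at 7.51 and 7.96 after nitrogen in roots, and between 5.93 and 6.27 in shoots. Like TPP1, it was higher on root nitrogen replicate 2 than on replicate 1. Next came the glutaredoxin gene GRXS9 (0.981), GER3 itself (0.972), the NAC-type transcription factor gene NAC071 (0.963) and the protein kinase gene CIPK21 (0.961).

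For GER3 the list was GRXS9 (0.988), actin-6 (0.987), also listed as ARP8, CIPK10 (0.981), NH1 (0.980) and NAC071 (0.978). NH1 is the rice counterpart of the Arabidopsis defence regulator NPR1. GRXS9 and NAC071 appear for both rising genes. TPP1 and GER3 correlated with each other at 0.972, so shared entries are not a separate result. CIPK10 had the widest pattern, with root changes of 1.48 and shoot changes of 0.14, and a signal 3.03 higher in roots (log2). For PIN5 the list was the beta-glucosidase gene BGLU6 (0.974), the kinesin gene KIN14B (0.973), IDI2 (0.960), the transcription factor gene BHLH003 (0.953) and the phosphomannomutase gene PMM (0.949). Their root differences with nitrogen ranged from -1.08 for BGLU6 to -0.43 for PMM, smaller in size than that of PIN5.

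Such patterns were not equally common. Of 10848 probe sets past the same limits, with or without a gene name, 297 (2.74%) had a correlation over 0.95 with GER3, 65 (0.599%) with TPP1 and 53 (0.489%) with PIN5.

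**Figure D4:**
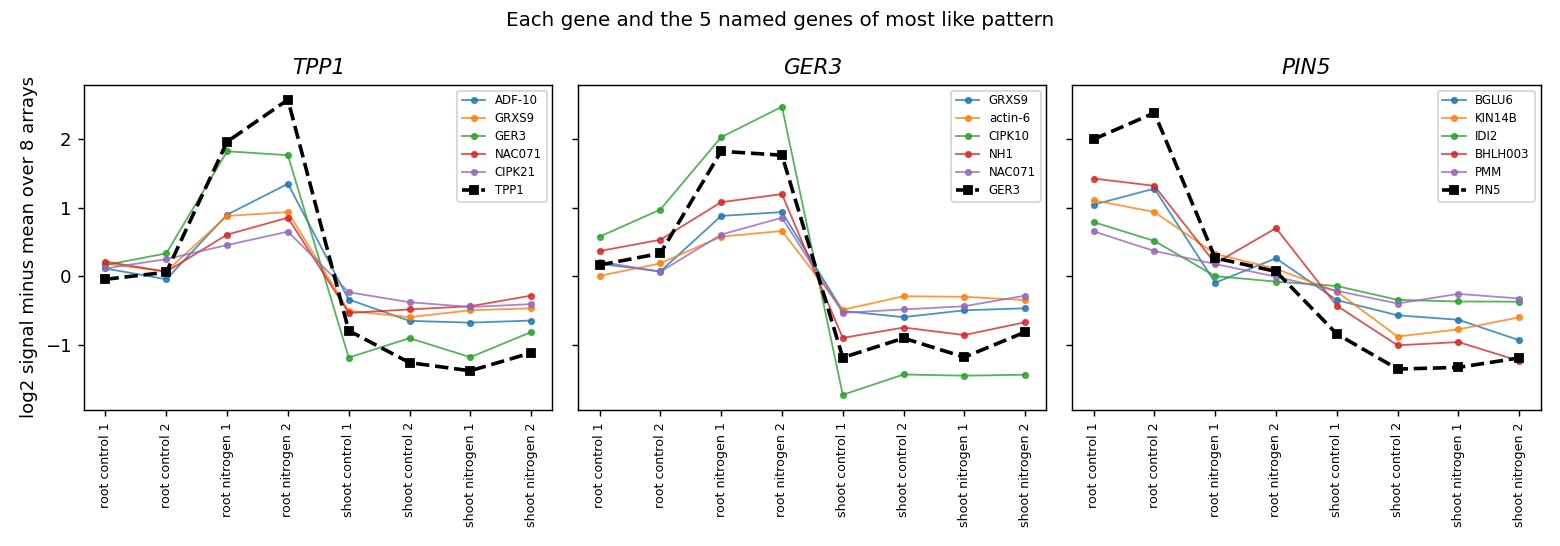
Log2 signal minus its mean over the 8 arrays (vertical axis) on each array (horizontal axis) for TPP1, GER3 and PIN5 (black, dashed) and the 5 named genes most like each. Lines only join points of a gene; the genes like TPP1 and GER3 peak in root nitrogen and those like PIN5 in root control, mostly over a narrower range.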

How the data were processed

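The deposited values are log2 signals per probe set, made by the authors with RMA (background correction, normalization across arrays and probe summary), per the submitters' processing notes; its version is not given in the sources used here. They were used without further scaling. Their precision is limited by the number of arrays. Control probe sets (187 of 57381) were left out. The platform annotation gave 22436 probe sets 1 gene. Symbols came from a RefSeq gene table (assembly ASM3414082v1), used for names and neighbours only. No sequences are shown.

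One limma 3.58.1 model (R 4.3.3) with 4 group means was fitted to all 57194 probe sets (4 residual degrees of freedom, moderated variances). P values are two-sided and Benjamini-Hochberg adjusted over all probe sets. The fit was tested on simulated data. Members and gene lists were chosen with earlier results of these data known. Families were taken by symbol, each gene by its probe set with the highest mean signal; TPPII and LAX PANICLE genes were left out as other gene types. Named from each list were called genes (at most 6) and the 3 uncalled genes of largest root change; any other gene named was chosen after its values were seen. Alternatives were median centring, quantile normalization, a filter on dim probe sets, arrays of 1 tissue alone, a replicate block, an exact permutation test and leaving out each array. The Arabidopsis arrays were not analysed here.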

Additional observations from a re-analysis of the deposited data

Results flagged for a closer look

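GH3.8 (LOC4343785) differed from control with opposite signs in the 2 tissues, with no overlap of arrays in either, and is given here because of that pattern. Over the whole array 5.44% of probe sets showed it. Other genes of the auxin list did too, among them GH3.4 and ARF17, so the pattern is not particular to GH3.8. GH3.8 was at 9.13 and 8.77 in root controls and 9.82 and 9.15 after nitrogen. In shoots it was at 8.18 and 8.61 in controls and 7.94 and 8.11 after nitrogen. The differences were 0.53 ± 0.24 in roots and -0.37 ± 0.24 in shoots, and neither was called (limma adjusted p = 0.491 and 0.933). Without 1 array the root value ranged from 0.20 to 0.87. The limma test of the difference (0.90 ± 0.34) did not pass, with an adjusted p of 0.779.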

How the results depend on the processing

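The root minus shoot differences of TPP1, GER3 and PIN5 kept their direction and their call in every alternative run. As said above, this test holds the root nitrogen arrays and is not independent of the choice of the genes. The counts of called probe sets moved more. With the replicate number as a block, 402 were called in roots and 52 in shoots, against 140 and 25; with the arrays of 1 tissue alone, 20 and 3. The labels do not say that a number marks a shared batch, and the deviations of same-numbered arrays correlated at 0.028 to 0.35 between groups. Without 1 array the count ranged from 18 to 193 in roots, from 2 to 22 in shoots and from 0 to 1 for the root minus shoot response (LOC4332162 without root nitrogen replicate 1, and a probe set with no gene in the table without replicate 2). In those fits a lone array is assumed to vary like the other groups. The root change of TPP1 ranged from 1.96 to 2.57. The shoot change ranged from -0.46 to 0.013 for TPP1, from -0.14 to 0.23 for GER3 and from -0.42 to 0.093 for PIN5. The root minus shoot response ranged from 2.18 to 2.79 for TPP1, 1.32 to 1.68 for GER3 and -2.12 to -1.61 for PIN5. Among the uncalled family genes named, TPP4 changed sign, with a range of -0.035 to 0.50. The cause of these moves was not tested, beyond the fewer arrays. With each array centred on its median or after quantile normalization no count moved by over 1.5 times.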
